A study of Drosophila melanogaster with 3 samples.

Results

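The genes of translation initiation and elongation factors were followed in a ChIP-seq data set of Snoo, a transcriptional coregulator related to vertebrate Ski and SnoN. Members were all protein-coding genes of the Ensembl annotation of the BDGP6 assembly whose name begins with eIF or eEF. The rule gave 52 genes of 13968, 44 named eIF and 8 named eEF, and it used no measured value. Chromatin came from whole Drosophila melanogaster pupae of the snoo-MiMIC strain, males and females pooled and of unknown age, and was sonicated and precipitated with an antibody against GFP. The flies carry an eGFP exon in an intron of Snoo, which makes the Snoo-eGFP fusion. There was 1 group of 3 biological replicates, numbered 3, 5 and 6 in the labels, and no other genotype, stage or treatment among the samples used here. A control library was not analysed here, so values were compared between genes and between replicates. All cells of the animal were in the sample, so binding in a few tissues and weaker binding in many cannot be told apart.

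Initiation factors place the ribosome on a messenger RNA. eIF2 brings the initiator tRNA to the small ribosomal subunit, eIF2B recharges eIF2 with GTP, eIF3 is the large scaffold that holds the complex together, the eIF4 proteins bind and unwind the capped end of the message, and eIF1, eIF1A and eIF5 govern the choice of the start codon. eIF5B joins the large subunit, which eIF6 keeps apart until then. Elongation factors then deliver aminoacyl-tRNAs (the eEF1 proteins), move the ribosome along (eEF2) and ease peptide bond formation (eEF5, the fly eIF5A). Several of these genes have paralogs in the fly, some of them expressed mainly in the testis.

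A gene was called bound where a peak summit lay within 1000 bp of one of its annotated transcript starts. Peaks were those of the authors' list of 6633 regions that they kept for their reproducibility between replicates (the IDR list, after the irreproducible discovery rate). The value of a peak is the signal that the authors' peak caller gave it, which ran from 128 to 4785 in this list, with a median of 222. Of the 52 genes 19 were bound (36.5%), against 25.2% of all protein-coding genes. The exact 95% interval of the members' share, which treats genes as independent and covers counting error only, ran from 23.6 to 51.0% and so held the share of all genes. The bound genes had a median signal of 358 at their strongest summit (quartiles 215 to 591), against 252 (174 to 442) over all 3526 bound genes. Signals above 1000 occurred in 3 of the 19, against 6.30% of all bound genes. Of these, the summits at eIF2Bbeta and eIF4EHP lay nearer to the start of another coding gene. Among bound members with their own start nearest, a choice made after seeing the data, the median signal was 278. No like value is given for all genes. No test was made of the list, and reading depth is unknown from these files.

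Neighbouring genes share some of these peaks. For 4 of the 19 bound genes the start of another protein-coding gene lay nearer to the strongest summit, and for 1 more, eIF4G2, both genes share the start. The own start was nearest, ties included, in 78.95% of the bound members, against 71.92% of all bound genes. The strongest summit was nearest to a start of the gene itself, ties included, in 15 of 52 genes (28.8%), against 18.2% of all genes. A summit within 150 bp of a start was found at 11 of 52 genes (21.2%), against 12.9% of all genes.

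**Figure D1:**
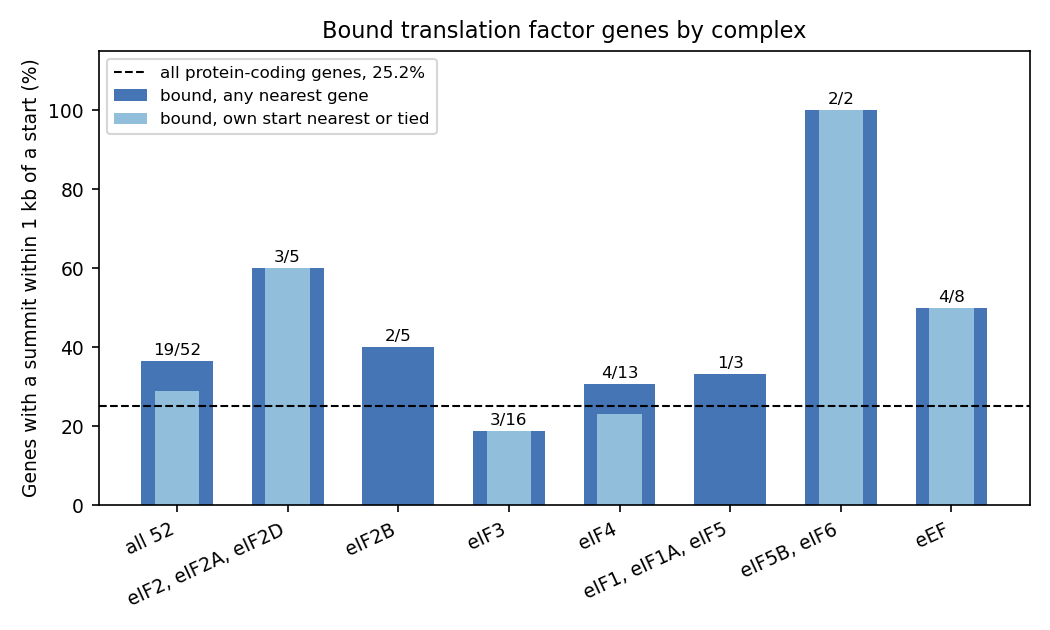
Share of genes with an IDR summit within 1 kb of a start, in percent, for all 52 genes and for each complex. The wide bars count every bound gene, the narrow pale bars those whose own start is nearest to the strongest summit or tied. The numbers above give bound over all genes of the complex, and the dashed line marks the 25.2% of all protein-coding genes. eIF3 with 3 of 16 lies below the line, but the complexes hold few genes and none was tested against it. eIF2B has no narrow bar.

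Sequence around the starts is shown for 5 bound genes whose own start was nearest and whose strongest summit falls in the window, to set summit, start and motifs side by side, with 2 unbound elongation factor genes beside them. They are not the 5 of highest signal: eIF6, eEF1alpha1 and eEF5, which also fit this description, are not shown. Each window runs 5' to 3' on the gene's strand over 200 bases of the RefSeq assembly of the dm6 build, from 170 bases before the start, which is base 171. Capitals mark matches to the searched motifs on either strand. In eEF1gamma the DRE, the site of the promoter factor DREF, stood at bases 130 to 137, the start at base 171 and the summit at base 160. In eIF3a the DRE stood at bases 133 to 140 and the summit at base 148. In eEF2 an E box stood at bases 86 to 91, a TATA box at 46 to 51 and the letters of the TCT initiator at 174 to 178, with the summit at base 153. The other capitals mark Ohler motif 6 in eEF1gamma and TATA boxes in eIF3a and eEF1alpha2. The windows of eIF5B and eIF4H1 held none of the motifs, with summits at bases 14 and 21. Windows of bound genes lie at the start nearest to the summit, which in eEF2, eIF5B and eIF4H1 is not that of the gene record. eEF1delta, unbound, held a DRE at bases 142 to 149. Windows lie at chr3R:29220002-29220201 (plus) for eEF1gamma, chr2L:21682087-21682286 (minus) for eEF2, chr3L:3460574-3460773 (minus) for eIF5B, chr3R:4433866-4434065 (minus) for eIF3a, chrX:16448982-16449181 (plus) for eIF4H1, chr3R:31738298-31738497 (plus) for eEF1alpha2 and chr2L:10232337-10232536 (plus) for eEF1delta.
eEF1gamma: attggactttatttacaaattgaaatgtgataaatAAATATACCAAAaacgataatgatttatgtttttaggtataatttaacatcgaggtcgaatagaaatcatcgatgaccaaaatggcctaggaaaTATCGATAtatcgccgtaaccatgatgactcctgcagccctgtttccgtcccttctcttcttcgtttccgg
eEF2: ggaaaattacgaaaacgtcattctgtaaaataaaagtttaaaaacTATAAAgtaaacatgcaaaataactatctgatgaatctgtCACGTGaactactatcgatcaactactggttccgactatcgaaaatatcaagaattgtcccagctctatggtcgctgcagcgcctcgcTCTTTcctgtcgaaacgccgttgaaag
eIF5B: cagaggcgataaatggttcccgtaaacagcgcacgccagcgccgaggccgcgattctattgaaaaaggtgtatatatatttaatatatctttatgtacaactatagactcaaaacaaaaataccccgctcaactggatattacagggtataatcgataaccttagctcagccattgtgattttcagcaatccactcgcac
eIF3a: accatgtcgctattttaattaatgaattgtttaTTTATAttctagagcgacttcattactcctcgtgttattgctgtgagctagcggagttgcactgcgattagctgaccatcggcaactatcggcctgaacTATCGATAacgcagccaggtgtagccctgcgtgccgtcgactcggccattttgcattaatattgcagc
eIF4H1: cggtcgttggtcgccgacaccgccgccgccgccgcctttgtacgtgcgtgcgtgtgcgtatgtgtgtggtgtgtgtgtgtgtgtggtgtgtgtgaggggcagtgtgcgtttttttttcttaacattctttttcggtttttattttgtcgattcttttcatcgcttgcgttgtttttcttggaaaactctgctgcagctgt
eEF1alpha2: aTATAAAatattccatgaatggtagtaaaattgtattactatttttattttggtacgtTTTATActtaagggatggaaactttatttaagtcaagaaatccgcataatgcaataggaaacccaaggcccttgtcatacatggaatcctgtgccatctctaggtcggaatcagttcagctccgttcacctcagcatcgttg
eEF1delta: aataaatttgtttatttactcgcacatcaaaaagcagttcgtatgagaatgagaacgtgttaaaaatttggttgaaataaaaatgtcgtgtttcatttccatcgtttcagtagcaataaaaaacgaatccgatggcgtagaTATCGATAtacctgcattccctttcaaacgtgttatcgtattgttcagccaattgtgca

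The strongest of the members' summits lay beside eIF2Bbeta and eIF4EHP, and 101 bases around each are shown because both lie nearer to a neighbour. They are plus-strand sequence at chrX:2703841-2703941 and chr3R:24109153-24109253, with the summit at base 51. TATA box letters, in capitals, stood at bases 40 to 45 and 53 to 58 of the window near eIF4EHP, and the window near eIF2Bbeta held no match.
near eIF2Bbeta: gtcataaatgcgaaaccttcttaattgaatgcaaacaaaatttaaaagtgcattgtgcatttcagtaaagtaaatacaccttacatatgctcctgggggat
near eIF4EHP: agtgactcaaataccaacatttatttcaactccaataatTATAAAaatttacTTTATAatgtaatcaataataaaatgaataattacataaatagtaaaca

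Among the genes for delivery of the initiator tRNA, eIF2beta, eIF2A and eIF2D were bound and eIF2alpha and eIF2gamma were not. eIF2beta encodes a subunit of eIF2. Its summit lay 266 bp upstream of the start with a signal of 182, and ranked 2816 of 30000 candidate regions in replicate 3, 4437 in replicate 5 and 9213 in replicate 6. It therefore fell outside the 6633 strongest regions of replicate 6. eIF2A, whose product can bind the initiator tRNA apart from eIF2, had a signal of 227 at 34 bp from a start, and eIF2D, related to factors of ribosome recycling, had 219.9 at 163 bp upstream. Both ranked within the top 6633 in each replicate. At eIF2alpha, the subunit whose phosphorylation slows initiation, the strongest candidate of the pooled replicates lay 10 bp from the start with a signal of 86.4, below the lowest signal of the IDR list. eIF2gamma, the GTP-binding subunit, had a pooled candidate of 36.9.

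The exchange factor eIF2B had 2 of 5 subunit genes bound, eIF2Bbeta and eIF2Bdelta, against 25.2% of all genes. In both a neighbour's start was nearer. The summit beside eIF2Bbeta is the strongest of the whole list. Its signal was 749 in replicate 3, 1432 in replicate 5 and 2632 in replicate 6, where it ranked 4, 1 and 1. It lay 680 bp upstream of eIF2Bbeta and 39 bp from the start of the sugar transporter gene Ugalt on the other strand. The summit 802 bp upstream of eIF2Bdelta had a signal of 176 and lay 251 bp from CG30414. It ranked 6875, 12526 and 3046 in replicates 3, 5 and 6, so a single replicate placed it among its strongest 6633 regions. eIF2Balpha, eIF2Bgamma and eIF2Bepsilon had no pooled candidate within 1000 bp of a start. In replicate 5 alone, eIF2Bepsilon had a candidate, with a signal of 69.9 and a rank of 3416.

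Of the 3 genes for start-codon selection, eIF1 was bound and eIF1A and eIF5 were not. The peak near eIF1, at chr3L:3222814-3223195 (dm6), had a signal of 746, and in the replicates 98.9 (replicate 3), 268 (replicate 5) and 392 (replicate 6). It lay 329 bp upstream of eIF1 but 52 bp from the start of RpL28, a ribosomal protein gene on the other strand. The pooled candidates near eIF1A and eIF5 had signals of 74.7 and 87.3.

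The eIF3 scaffold had 3 of 16 genes bound (18.8%), below the 25.2% of all genes. eIF3h had a pair of summits in its own gene. The stronger, in an intron 271 bp downstream of the start, had a signal of 429 (139 in replicate 3, 98.9 in replicate 5 and 184 in replicate 6). The other, 44 bp downstream, had 274. The start of senju on the other strand lay 334 and 107 bp from these summits. eIF3a, a core subunit, had a summit 23 bp upstream with a signal of 278 (58.0, 93.9 and 136 in replicates 3, 5 and 6), and 47 bp from the divergent start of CG1074. eIF3m had the lowest signal of the bound genes, 151 at 31 bp downstream of the start. It had no candidate within 150 bp of this summit in replicate 3 and ranked 6980 in replicate 5 and 5966 in replicate 6. Elsewhere within 1000 bp of a start, replicate 3 held a candidate with a signal of 51.1, ranked 4547.

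eIF3c differed between the lists. Each replicate held a region just upstream of its start, with signals of 77.2 in replicate 3, 59.1 in replicate 5 and 141 in replicate 6. These ranked 2380, 4458 and 2205, within the strongest 6633 of each list, with summits 75, 77 and 45 bp upstream. The pooled list gave no region with that summit. It gave one with its summit 128 bp downstream of the start of the gene record, and 47 bp from the nearest of the gene's 2 starts. This region had a signal of 58.1, ranked 14673, and eIF3c was therefore not called bound. Among all 3713 regions that were strong in the 3 replicates, 59 had no IDR summit within 150 bp (1.59%), and of the 2265 genes with a region strong in all 3 within 1000 bp 36 were not called bound. The other unbound eIF3 genes were eIF3b, eIF3d1, eIF3d2, eIF3e, eIF3f1, eIF3f2, eIF3g1, eIF3g2, eIF3i, eIF3j, eIF3k and eIF3l, and only eIF3b, eIF3j and eIF3l of these had a pooled candidate within 1000 bp, with signals of 60.2, 51.4 and 74.3.

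In the eIF4 group 4 of 13 genes were bound, eIF4EHP, eIF4H1, eIF4A and eIF4G2, against 25.2% of all genes. eIF4EHP encodes a cap-binding protein that represses translation. Its summit had the second highest signal of the 19, 1920, with 333 in replicate 3, 533 in replicate 5 and 1049 in replicate 6. It lay 243 bp upstream of eIF4EHP and nearer, 133 bp, to the start of CG18428 on the other strand. eIF4H1, related to a cofactor of the helicase, had 277 at 150 bp from a start, in an intron of its longer transcript (57.7, 156.5 and 78.4 in replicates 3, 5 and 6). It ranked 966 in replicate 5 but 3782 in replicate 3 and 4671 in replicate 6. The helicase gene eIF4A had 209.5 at 77 bp, and eIF4G2, a paralog of the scaffold gene eIF4G1, had 174 at 179 bp downstream of a start that it shares with CG33111. The cap-binding genes eIF4E1, eIF4E3, eIF4E4, eIF4E5, eIF4E6 and eIF4E7 were not bound. eIF4E1, the main cap-binding protein, had a pooled candidate of 33.7, and the other 5 had none. Just below the IDR list came eIF4G1 on chromosome 4, with a pooled candidate of 112 ranked 7725, which is the highest signal of the 33 unbound genes. eIF4B had a pooled candidate of 45.9 and eIF4H2 none.

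Both late factors, eIF5B and eIF6, were bound (2 of 2), against 25.2% of all genes. The peak at eIF6 lies at chr2R:23850198-23850587 (dm6). eIF6 had a signal of 1636 at 106 bp upstream (293 in replicate 3, 439 in replicate 5 and 898 in replicate 6), ranked 112, 87 and 55. This was the highest signal of a bound gene whose own start was the nearest coding start, although the start of the noncoding asRNA:CR45928 lay 77 bp away. eIF5B had 429 at 157 bp from a start (78.6, 102 and 239 in replicates 3, 5 and 6). Deep in its body it held 3 more IDR summits, all in introns. The strongest of these, at chr3L:3432691-3432999, lay 27755 bp from the start with a signal of 465, above that of the promoter summit. eIF4EHP also held 3 intronic summits beyond 1000 bp, with signals of 215, 188 and 159. Those of 215 and 159 lay 657 and 92 bp from a start of Syx1A, a gene whose start lies in this region.

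Elongation factor genes were bound in 4 of 8 cases, against 25.2% of all genes, and with so few genes the share was not tested. In the 4 bound genes the strongest summit lay within 42 bp of an annotated start. eEF1gamma, a structural subunit of the exchange complex for eEF1A, had a signal of 962 at 11 bp upstream, and 167, 335 and 448 in replicates 3, 5 and 6. No other coding start lay within 3 kb of it. eEF2, the translocase, had 436 at 18 bp (81.5, 177 and 198). eEF1alpha1, the carrier of aminoacyl-tRNA, had 404 at 42 bp from a start within its gene (72.2, 136 and 217), and a weaker summit of 139.9 which lay 9 bp from the divergent ERp60. eEF5 had 358 at 5 bp downstream of a start (64.0, 138 and 179.7). The peaks lie at chr3R:29219897-29220327 for eEF1gamma, chr2L:21681937-21682299 for eEF2, chr2R:11891902-11892245 for eEF1alpha1 and chr2R:24057636-24057941 for eEF5. All 4 ranked within the top 6633 in each replicate, and in each of them the place in replicate 3 was the farthest down, at 545 to 3248. The median distance from a start to the strongest summit was 14.5 bp in the 4 genes, and 163 bp in the 15 bound eIF genes, of which 3 had it within 50 bp. Over all bound genes the median was 173 bp and 15.5% lay within 50 bp. Among ribosomal protein genes (names beginning with RpL or RpS), 79 of 92 were bound, with a median distance of 22 bp and 76.0% within 50 bp. Distances run to the nearest annotated start of a gene, and each of the 4 bound eEF genes has 2 or 4 starts. Several starts were present in 45.2% of all bound genes. The bound eIF genes include eIF1, eIF2Bbeta, eIF2Bdelta and eIF4EHP, whose summits lay nearer to a neighbour's start. All these values are descriptions without a test.

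The unbound elongation factor genes were eEF1alpha2, eEF1beta, eEF1delta and eEFSec. eEF1alpha2, the paralog of eEF1alpha1, had a pooled candidate of 54.7 at 1 bp from a start, with signals of 17.6, 24.5 and 18.2 in replicates 3, 5 and 6. Its values lay below those of eEF1alpha1 in all 3 lists, with ranks of 13604 to 26814 against 1152 to 2678. The calls rest on these same lists, so this order largely follows from the calls and adds no separate support. eEF1beta and eEF1delta, exchange subunits of the same complex as eEF1gamma, had pooled candidates of 54.9 and 45.0. The strongest candidates at eEF1beta had signals of 27.3, 33.5 and 48.2 in replicates 3, 5 and 6, and those at eEF1delta 14.98 and 28.39 in replicates 3 and 5, with none in replicate 6. eEFSec, the factor for selenocysteine, had a pooled candidate of 103, with 38.6, 23.2 and 44.7 in the replicates. All 4 genes had lower signals than the bound elongation factors in every replicate list that held a candidate. This order, too, largely follows from the calls, which rest on these lists. In their calls the eIF4H genes differed as the eEF1alpha genes did, with a summit at eIF4H1 and no candidate at eIF4H2. In the pairs eIF3d1 and eIF3d2, eIF3f1 and eIF3f2, and eIF3g1 and eIF3g2, neither gene was bound or had a pooled candidate.

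**Figure D2:**
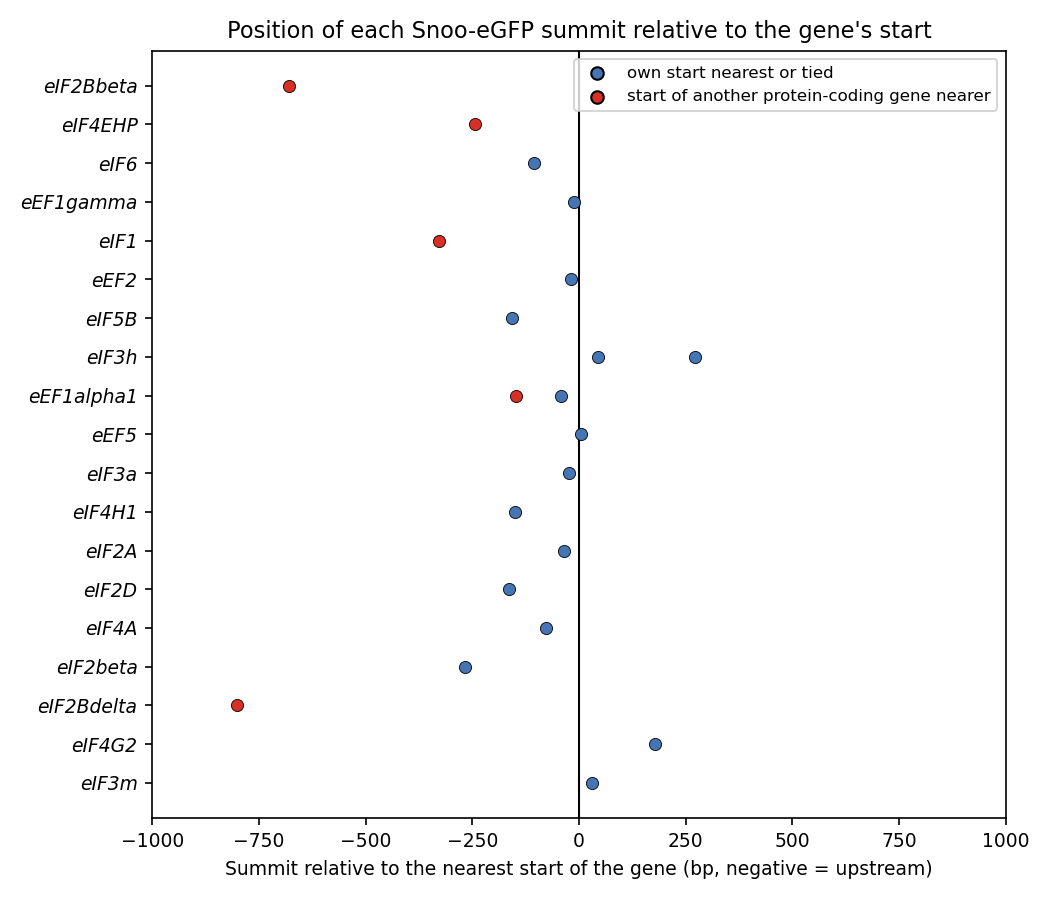
Position of every IDR summit within 1 kb of a start of the 19 bound genes, in bp from the nearest start of the gene, negative values being upstream; genes run down the page by signal. Blue points have the gene's own start nearest or tied, and red points lie nearer to another protein-coding start, as at eIF2Bbeta (680 bp upstream) and eIF2Bdelta (802 bp); the 4 elongation factors each have a point within 42 bp of the start.

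Motifs were counted over windows from 250 bases before to 50 after the start of each gene record, on both strands. The DRE (TATCGATA, its own reverse complement) was in 14 of the 52 windows (26.9%), against 9.36% of all protein-coding genes, with 5 among the 19 bound and 9 among the 33 unbound genes. Of these 14 genes 5 were bound, and of all 1307 genes with a DRE 33.6%. The TCT initiator, a start element known from ribosomal protein and translation factor genes and searched as TCTTT on the gene's strand beginning within 10 bp of the start, was in 7 of 52 (13.5%), against 2.85%. Its members were eEF1alpha1, eIF3d1, eIF3e, eIF3g1, eIF3i, eIF4A and eIF5B, of which 3 were bound. The match in the printed window of eEF2 lies at another start than that of the gene record and is not in this count. At the start nearest to the strongest summit the count was 5, of which 1 was bound, eEF2. There eEF1alpha1, eIF4A and eIF5B had no match. The TATA box (TATAAA) was in 23 of 52, against 45.8% of all genes. It was in 12 of the 19 bound and 11 of the 33 unbound members, but from 100 bases before the start on in 4 of the 19 bound and 9 of the 33 unbound ones, so the order of the shares turned round. The E box (CACGTG) was in 4 of 52, against 4.2%. The GAGA-factor element (GAGAGAG) was in 1 of 52, against 5.86%. Ohler motif 1, Ohler motif 6 and Ohler motif 7 were each in 3 of 52, against 4.49%, 2.23% and 9.28%. The Smad box (GTCTAGAC) and the Mad, Medea and Schnurri pattern were in none, against 0.122% and 0.136% of all genes. Within 100 bp of the summit, the DRE was found at 4 of the 21 member summits (19.0%, at eEF1gamma, eIF1, eIF2A and eIF3a), against 4.23% of the 3265 IDR summits near coding starts. The summit at eIF1 lay 52 bp from the start of RpL28 and 329 bp from eIF1, whose own promoter window held no DRE. The TATA box was at 4 of the 21, against 32.9%, and Ohler motif 7 at none, against 7.20%. The E box, GAGA, Ohler motif 1 and Ohler motif 6 were at 1 each, against 2.27%, 7.41%, 1.90% and 0.888%. A match of letters is a description and does not show a site in use.

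Bound and unbound members can be set side by side by structure, without a test. Several annotated starts were present in 12 of the 19 bound genes and in 8 of the 33 unbound ones. Of the 20 members with several starts 12 were bound (60.0%), and of the 32 with a single start 7 (21.9%), against 43.0% and 18.8% over all genes. More starts give more windows in which a summit can fall, and the part of this in the counts was not tested. A start of an opposite-strand coding gene lay within 1000 bp upstream in 11 of the 19 bound and 14 of the 33 unbound members, against 55.4% of all bound and 28.4% of all unbound genes. Median gene length was 2532 bp in bound and 1944 bp in unbound members, against 3462 bp in all bound and 1899 bp in all unbound genes.

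**Figure D3:**
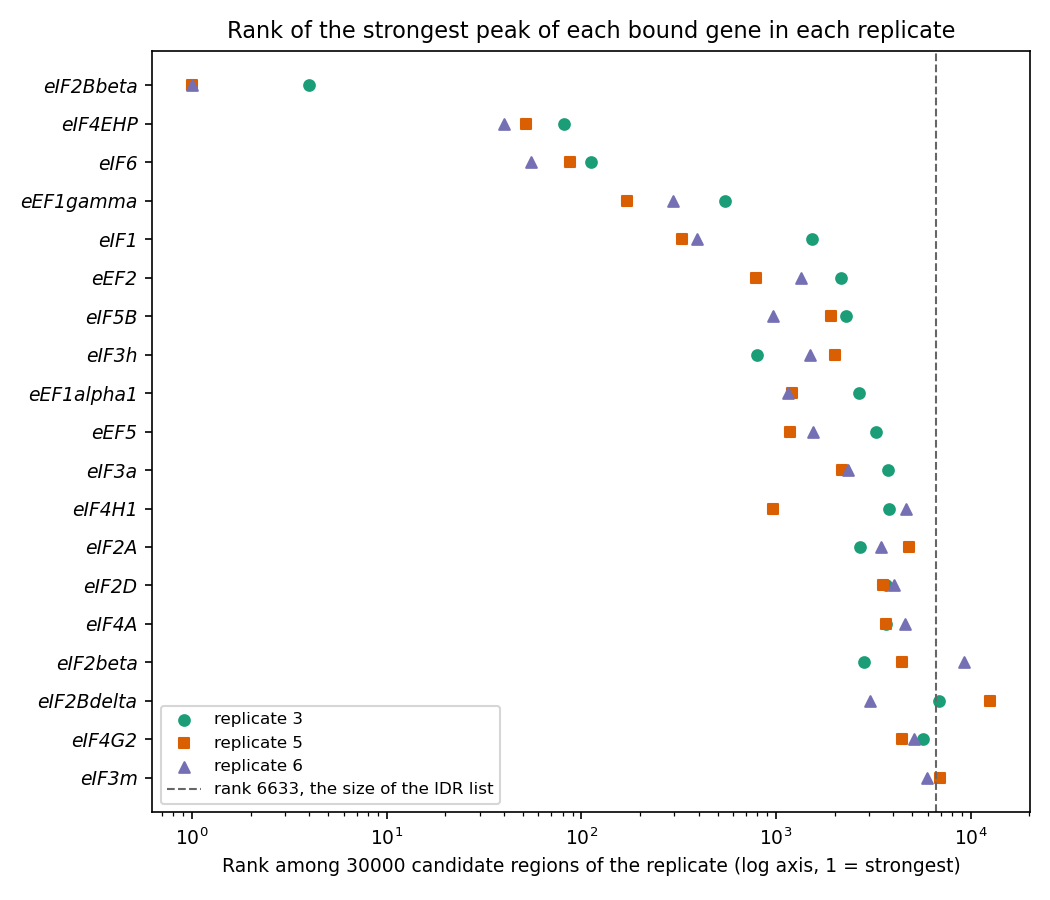
Rank of the strongest peak of each bound gene among the 30000 candidate regions of each replicate (log axis, 1 being the strongest), with genes ordered by signal in the IDR list. Replicates are drawn by colour and shape and the dashed line marks rank 6633; 16 of 19 genes have all 3 replicates left of it, and eIF2beta, eIF2Bdelta and eIF3m do not (eIF3m has no point for replicate 3).

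The summits beside eIF2Bbeta, eIF4EHP and eIF6 came in this order ahead of all other members in each replicate. For 16 of the 19 genes the strongest summit ranked within the top 6633 in all 3 lists, for eIF2beta in 2 and for eIF2Bdelta and eIF3m in 1. Of all 52 genes 16 (30.8%) had a summit among the strongest 6633 regions of all 3 replicates, against 16.1% of all genes. The highest signal was 948 in the list of replicate 3, 1432 in that of replicate 5 and 2632 in that of replicate 6, so that ranks and not signals were set beside each other between lists.

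The unbound genes differed in how near they came to the list. Of the 33, 15 had a pooled candidate region within 1000 bp of a start, with signals from 33.7 to 112 and a median of 58.1, close to the median of 56.6 over all 30000 pooled candidates. The remaining 18 had none, and 10 of the 33 had no candidate in any replicate. A candidate, strong or weak, was present at 34 of the 52 genes (65.4%), against 50% of all genes.

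**Figure D4:**
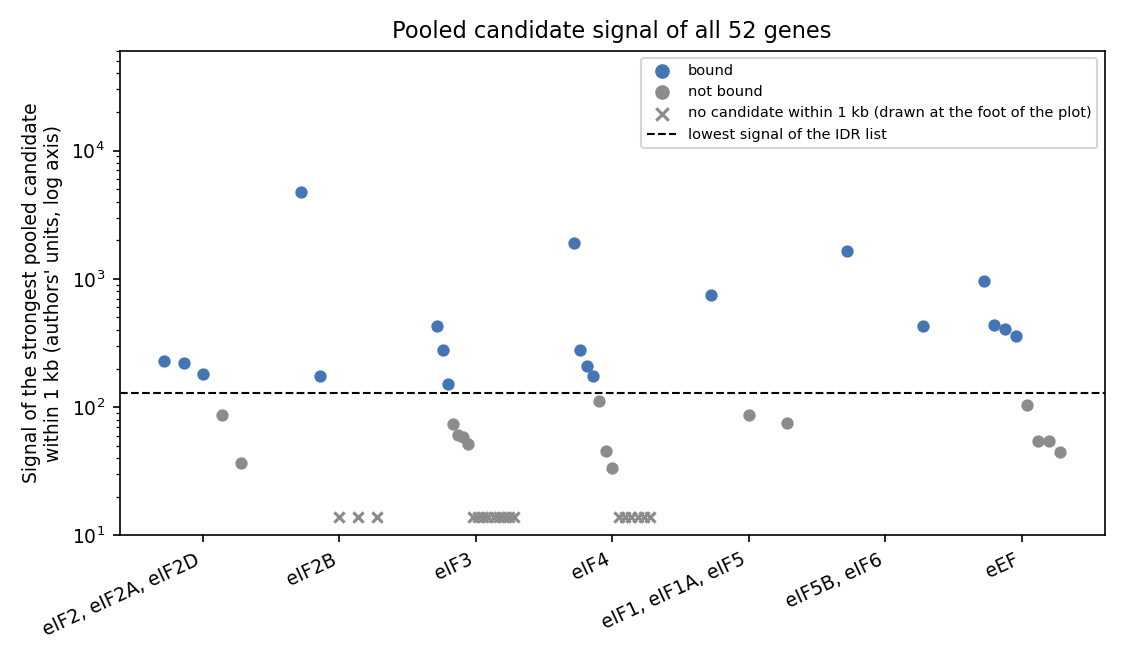
Signal of the strongest pooled candidate within 1 kb of a start for each of the 52 genes (authors' units, log axis), by complex. Blue points are bound and grey points unbound genes, crosses mark the 18 genes without a candidate, and the dashed line is the lowest signal of the IDR list (128); eIF4G1 at 112 and eEFSec at 103 lie just below it.

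Other genes of translation were counted by the same rule, in lists drawn up by name and not tested, against 25.2% of all genes. All 5 genes of termination and recycling were bound, eRF1 (signal 203), eRF3 (209.7), pelo (214), pix (180.5) and HBS1 (130.5), with summits 34 to 349 bp from a start. At eRF3 a neighbour's start was nearer. All 5 signals lay below the median of 222 of the IDR list. The summits at eRF1, pelo and pix ranked within the top 6633 in 2 replicates, and those at eRF3 and HBS1 in 1. Of all bound genes 62.9% had the strongest summit within the top 6633 in all 3. Of 8 regulators of initiation 7 were bound. Lk6, a kinase of eIF4E, had the highest signal (2932), followed by the poly(A)-binding protein gene pAbp (683), Paip2 (299), Thor, the eIF4E-binding protein gene (263), bel (222), Pdcd4 (181) and NAT1 (131), while cup was not bound. Their summits lay 20 bp (Thor) to 978 bp (Lk6) from a start, and those of bel, Paip2 and Pdcd4 at 962, 811 and 726 bp. Gcn2, PEK and PPP1R15, which act on the phosphorylation of eIF2, were not bound (0 of 3). Cytosolic aminoacyl-tRNA synthetase genes were bound in 8 of 18 cases, led by SerRS (438), ThrRS (381) and GluProRS (368). The own start was nearest in 5 of the 8, and a neighbour's start was nearer at AspRS, ArgRS and ValRS. Of 6 mitochondrial factors mIF2 alone was bound (166), and mEFG2 was not matched by name.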

How the data were processed

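The deposited files were peak lists on the dm6 build, 1 of 30000 candidate regions for each of 3 replicates, 1 for the pooled replicates and the IDR list of 6633 peaks derived from them, per the deposited file listings. Each peak carries the signal that the authors' caller gave it, made with 1 further source file that all replicates share, taken here as the control. The sources used here do not give aligner, caller, threshold, versions or read depth, and lists on dm3 were not used. Signals were compared within 1 list only.

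Genes and starts came from the Ensembl BDGP6 annotation and bases were read from RefSeq's dm6 genome, whose arms were at least as long as the last peak on each. Summits within 150 bp were taken as the same. A member's strongest summit gave its value. Counting was checked on 200 starts with planted summits. Python 3.11.15, numpy 2.4.6, scipy 1.17.1, pandas 2.3.3 and matplotlib 3.10.9 were used. No significance test was made: members and lists were chosen with earlier results of these data known, so counts stand beside those over all protein-coding genes. Every member is named, with replicate values for the 12 highest signals and all elongation factors. Windows shown are of the first 2 unbound members by name and of the 6 bound members of highest signal with their own start nearest, members on chromosome arm 2R being left out of both; eIF3h, 1 of the 6, is not shown because its strongest summit lies outside the window. Alternatives changed the window, the peak set, the starts, the attribution and the replicates.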

Additional observations from a re-analysis of the deposited data

How the results depend on the processing

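Of 52 genes 11 were bound with summits within 150 bp (21.2%, against 12.9% of all genes), against 19 within 1000 bp, and 7 of 44 initiation factor genes, against 15. Among the 3317 strongest peaks 9 initiation factor genes were bound, and 13 of the 52 members, against 14.6% of all genes. With 2000 bp 23 members were bound (44.2%, against 30.8% of all genes), eIF2Bgamma, eIF3d1, eIF3f2 and eIF3g1 being added. Every other alternative run kept the 3 counts (all members, initiation factors, elongation factors) within 1.5 times. Leaving out each replicate gave 17 to 18 members (18.1 to 19.7% of all genes), 13 to 14 initiation factors and 4 elongation factors. These counts also replace the IDR list by regions shared between the remaining replicate lists, so both choices change at once. eIF3c was gained in each of these, as it was with all 3 replicate lists, and eIF2Bdelta and eIF3m were lost, with eIF2beta lost without replicate 3 and without replicate 5. Regions strong in all 3 replicate lists, an alternative chosen after seeing the data, gave 17 members (16.2% of all genes). The median signal was 358, and 278 within 150 bp, 329 within 2000 bp and 429 among the 3317 strongest peaks. With the own start nearest, chosen after seeing the data, it was 278. The 2000 bp window adds 4 genes to the 19, and the other 3 settings keep part of them. In the shorter promoter window (100 bases before the start) the TATA box was in 13 members (4 bound and 9 unbound) and Ohler motif 6 in 1. No paired analysis was possible because the series holds 1 group. Depth is unknown, so an unbound gene was not detectably bound in these lists, and no absence follows.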

Other observations

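Of 3713 regions among the strongest of all 3 replicates, 44 (1.19%) had no summit within 150 bp in the pooled candidate list. The region upstream of eIF3c was among them.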
